A study of Homo sapiens with 11 samples.

Results

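The comparison of dieldrin with its solvent DMSO after 30 min covered every gene for which the authors' deposited table gives a p-value, 43328 of 44416 rows. An adjusted p was given for 19280 of them, and a gene is called here when it lies under 0.05. The cells were Jurkat, clone E6-1, a human leukaemia line of T cell origin. The exposed cells received 100 µM dieldrin in DMSO for 30 min and the control cells DMSO alone, with 3 poly(A)-enriched libraries each. Another group of 3 libraries, from cells given phorbol myristate acetate (PMA) at a labelled 100 µM in DMSO, shares these controls, and its values are set beside those of dieldrin without a test of the difference. From 1 further dieldrin library and 1 further DMSO library, depleted of ribosomal RNA, the authors listed sites of divergent transcription. Nothing in the labels ties the replicate libraries to separate cultures, and all p-values measure the spread between these libraries only, which may be technical.

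Dieldrin is a chlorinated cyclodiene insecticide that blocks the chloride channel of GABA-A receptors in nerve cells. Poly(A) selection captures mature and nearly mature messenger RNA and polyadenylated noncoding RNA. Over a short exposure an RNA can fall only as fast as it decays, whereas a newly transcribed short gene can accumulate within minutes. The immediate-early genes that cells switch on without new protein synthesis have their own lists, and the account here turns to the genes outside a list of 107 such symbols. Counts by class, structure, promoter and site take in all called genes unless they say otherwise.

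The values are the authors' own estimates, without values per library, so no standard deviation or depth per library can be given. Levels are in CPM, each gene's part of the summed mean normalised counts of all rows (1 CPM corresponds to 83.7 counts), and the level of each group was worked out from the mean of the 9 poly(A) libraries and the unshrunken changes. A CPM value is not divided by gene length, so levels are compared between groups and not between genes. All 13 T cell line markers checked, among them CD3E, LCK and PTCRA, reached 1 CPM, with summed levels of 3301 CPM with dieldrin and 3386 CPM with DMSO, and none of them was called. Of the B cell markers 1 of 5 reached 1 CPM (CD79A), of the myeloid markers 0 of 5, of the erythroid and platelet markers 0 of 5 and of the fibroblast and epithelial markers 1 of 5 (COL1A1).

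The test called 443 of the 19280 adjusted genes of the authors' deposited table, a background of 2.30%, with 246 higher (1.28%) and 197 lower (1.02%) with dieldrin. At an unadjusted p under 0.05 the authors' deposited table holds 1684 of the 43328 genes. The early-gene list supplied 59 of the higher genes and 1 of the lower genes, so 187 higher and 196 lower genes lie outside it. Most RNAs lay close to no change. For the 12839 genes of at least 1 CPM with an adjusted p, the median unshrunken log2 change was -0.003. Of these, 90% lay between -0.27 and 0.26. At that level the 201 higher genes had a median fold of 1.47 and the 188 lower genes one of 0.692, per the authors' deposited table. Changes of 4-fold or more were almost one-sided, with 39 higher genes and 1 lower gene, MT-TT. The smallest called rise was 7.00-fold below 0.1 CPM, 1.80-fold between 0.1 and 1 CPM, 1.24-fold between 1 and 10 CPM, and 1.13-fold at 10 CPM or more. Below 1 CPM 45 genes were called higher and 9 lower.

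**Figure D1:**
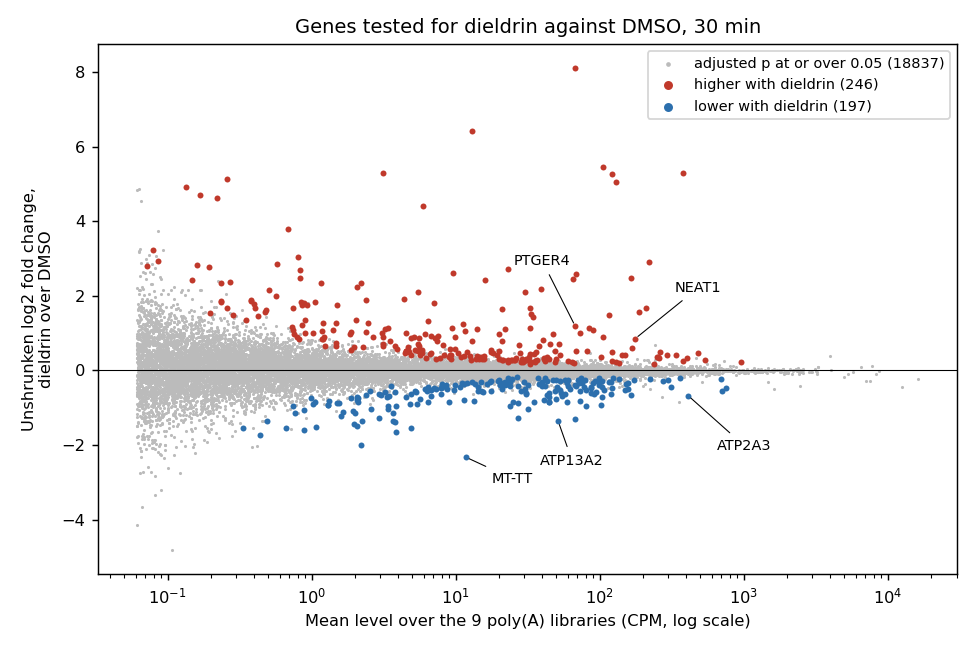
Each point is 1 of the 19280 genes with an adjusted p; the horizontal axis is the mean level in CPM on a log scale and the vertical axis the unshrunken log2 fold change of dieldrin over DMSO. Red points are the 246 higher genes, blue points the 197 lower genes and grey points the rest. Red points reach farther from no change than blue points. Some blue points also lie far from it, among them MT-TT at -2.33, ATP13A2 at -1.36 and PNPLA6 at -1.31.

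Outside the early-gene list, the largest coding rises by the shrunken change included PTGER4, MYADM and TNFSF9. PTGER4 (hg19 chromosome 5, 40679600 to 40693837), the prostaglandin E2 receptor EP4 that raises cyclic AMP, averaged 107 CPM with dieldrin and 47.1 CPM with DMSO. Its shrunken log2 change was 1.03 ± 0.080 (SE), with an adjusted p of 6.28e-35 and a PMA fold of 1.03, per the authors' deposited table. MYADM, a membrane protein gene first described in myeloid differentiation, averaged 107 CPM with dieldrin and 53.8 CPM with DMSO, and the authors' deposited table gives 0.88 ± 0.075 (shrunken log2, SE) and an adjusted p of 2.75e-29. TNFSF9, the ligand of the costimulatory receptor 4-1BB, rose 2.35-fold with an adjusted p of 1.39e-10 per the authors' deposited table.

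Genes of proteins inside the cell were also among them. VMP1, an endoplasmic reticulum membrane protein needed to form autophagosomes, averaged 136 CPM with dieldrin and 63.9 CPM with DMSO and rose 2.13-fold with an adjusted p of 3.46e-36, per the authors' deposited table. PNRC1, a coactivator of nuclear receptors, rose 1.95-fold, TAGAP, a GTPase-activating protein of activated T cells, 2.01-fold, and SMAP1, a GTPase-activating protein for ARF6, 1.83-fold, per the authors' deposited table. Their adjusted p-values per the authors' deposited table were 5.48e-24 for PNRC1, 7.99e-13 for TAGAP and 7.62e-17 for SMAP1. PHLDA1 rose 2.20-fold and the core histone gene HIST3H2A 2.53-fold per the authors' deposited table. Which histone RNA forms poly(A) selection retained is not known from these values. With PMA the folds of PNRC1, TAGAP, SMAP1, PHLDA1 and HIST3H2A ran between 0.979 and 1.49 per the authors' deposited table, none of them called.

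The 15 largest falls comprised 7 coding genes, 5 mitochondrial tRNA genes and 3 lincRNAs, and the coding genes are described first. CBX6 (hg19 chromosome 22, 39257455 to 39268319), a chromobox protein of polycomb complexes, averaged 50.3 CPM with dieldrin and 98.3 CPM with DMSO, and fell by 0.79 on the shrunken log2 scale with an SE of 0.088 and an adjusted p of 9.92e-17 per the authors' deposited table. TAP1, one chain of the transporter that brings peptides to MHC class I molecules, averaged 14.8 CPM with dieldrin and 28.5 CPM with DMSO, with an adjusted p of 1.18e-10 per the authors' deposited table. Its partner TAP2 averaged 16.9 CPM with dieldrin and 22.2 CPM with DMSO, with an adjusted p of 1.50e-05 per the authors' deposited table. DGAT2, which catalyses the last step of triacylglycerol synthesis, fell to 0.553 times its DMSO level with an adjusted p of 2.33e-11 per the authors' deposited table. The cell surface receptor genes NOTCH2 and NOTCH3 stood at 0.557 and 0.488 times their DMSO levels per the authors' deposited table. ATP13A2 averaged 26.1 CPM with dieldrin and 67.0 CPM with DMSO, and PNPLA6, which hydrolyses membrane phospholipids, 33.8 CPM with dieldrin and 83.9 CPM with DMSO. For CBX6, TAP1, TAP2, DGAT2, NOTCH2, NOTCH3, ATP13A2 and PNPLA6 the PMA folds lay between 0.885 and 1.01 per the authors' deposited table, and none was called.

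**Figure D2:**
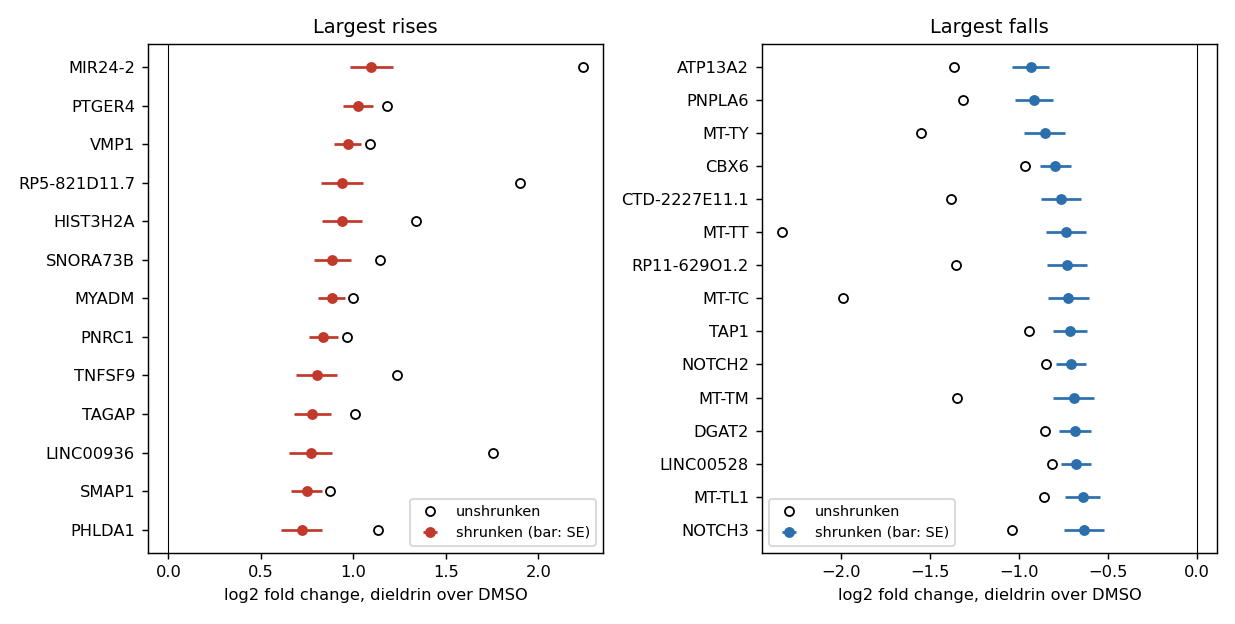
Of the 15 largest rises 13, and the 15 largest falls, outside the early-gene list, with the log2 fold change of dieldrin over DMSO on the horizontal axes. Filled points with bars are the shrunken changes with their standard errors and open points the unshrunken ones; MIR24-2 is the table's symbol for an antisense RNA. Of the genes shown MT-TT has the widest gap between both estimates, at -0.73 shrunken and -2.33 unshrunken.

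By gene class, from the gene types of GENCODE v29, protein-coding genes had 315 of 13176 tested genes called (2.39%), 180 higher and 135 lower, 1.37% and 1.02%. Pseudogenes had 12 of 1869 higher and 3 lower. Small RNAs had 12 of 284 higher and 0 lower, a share of 4.23% against the background of 1.28%. In the other direction 11 of 20 mitochondrial tRNA genes were lower and 0 higher, while 0 of 2 mitochondrial ribosomal RNA genes were called. At an unadjusted p under 0.05 in the authors' Wald test, 37 small RNAs were higher and 6 lower, 0 mitochondrial tRNAs higher and 14 lower, and 1 mitochondrial ribosomal RNA lower. Of 49 antigen receptor segments 2 were higher, TRAV17 and TRAV19, variable segments of the T cell receptor alpha locus, and 713 tested rows whose ID had no match held 9 higher and 7 lower genes.

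**Figure D3:**
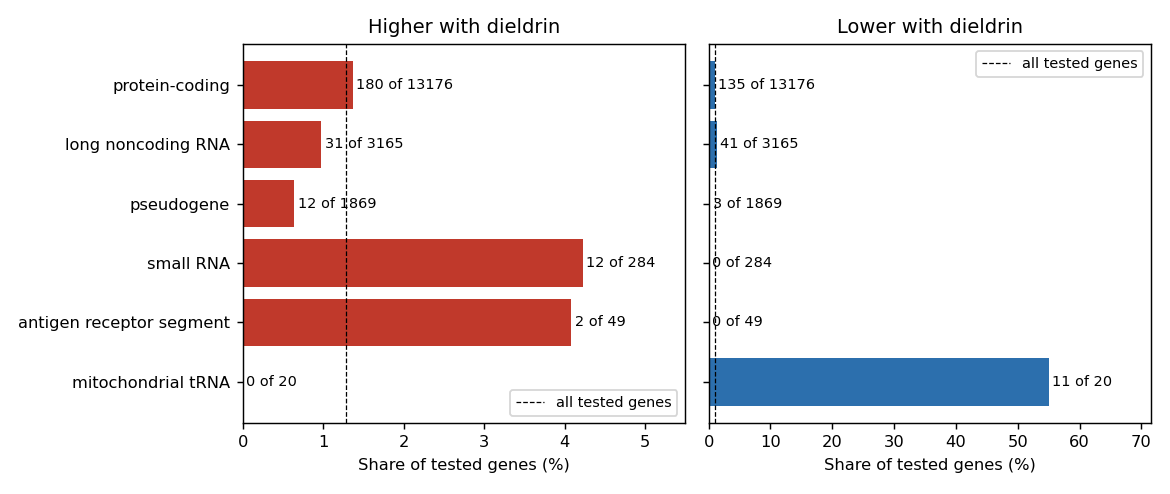
Bars give the share of tested genes of each class, in percent, that were called higher (left) or lower (right) with dieldrin, with the counts beside them and the share over all tested genes as a dashed line. The horizontal axes differ in scale; small RNAs were called in 1 direction only, and 55.0% of mitochondrial tRNA genes were called lower.

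Small nucleolar RNAs, which guide the chemical modification of ribosomal RNA and are mostly cut from introns, supplied 7 of the 12 higher small RNAs, out of 98 tested. SNORA73B averaged 11.4 CPM with dieldrin and 5.15 CPM with DMSO, a 2.21-fold rise with an adjusted p of 1.25e-16 per the authors' deposited table, where its PMA fold was 2.26. SNORD14E averaged 7.64 CPM with dieldrin and 1.78 CPM with DMSO, with an adjusted p of 0.000100 per the authors' deposited table, and SNORA33 averaged 5.80 CPM with dieldrin and 3.71 CPM with DMSO, with an adjusted p of 0.000242. The other 4, named after their values were seen, were SNORD51 at 2.40-fold, SNORD20 at 2.24-fold, SNORD12C at 2.97-fold and SNORA53 at 3.45-fold per the authors' deposited table. Only 4 of the 12 higher small RNAs reached 1 CPM. SNORD12C averaged 0.724 CPM with dieldrin and 0.244 CPM with DMSO. With PMA SNORD14E, SNORA33 and SNORD51 were also called, at 3.95-fold, 1.92-fold and 2.61-fold, and SNORD12C, at 1.85-fold, was not, per the authors' deposited table. Mature small RNAs carry no poly(A) tail, and whether the reads came from them, from unspliced host transcripts or from overlapping exons was not tested. How the counting treated strand is not given in the sources used here, and an RNA that overlaps another gene may hold reads of that gene.

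The mitochondrial tRNA genes with the largest shrunken falls were MT-TY, MT-TT, MT-TC, MT-TM and MT-TL1. MT-TT, the tRNA for threonine, averaged 3.31 CPM with dieldrin and 16.6 CPM with DMSO, and MT-TY, the tRNA for tyrosine, 2.46 CPM with dieldrin and 7.18 CPM with DMSO. Their folds were 0.199 and 0.342 and their shrunken log2 changes -0.73 and -0.85, with adjusted p-values of 1.18e-08 and 3.90e-11, per the authors' deposited table. MT-TL1, a leucine tRNA, averaged 5.44 CPM with dieldrin and 9.85 CPM with DMSO. These 5 genes span only 66 to 75 bases. Whether their reads came from tRNAs or from neighbouring mitochondrial transcripts was not tested. In the PMA cells the folds of MT-TY, MT-TT, MT-TC, MT-TM and MT-TL1 ran between 0.694 and 1.39 per the authors' deposited table, none called.

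Long noncoding RNAs, transcripts without a long reading frame, changed in both directions, with 31 of 3165 tested higher (0.979%) and 41 lower (1.295%). These shares were near those over all tested genes, 1.28% higher and 1.02% lower. NEAT1, the scaffold of nuclear paraspeckles, averaged 233 CPM with dieldrin and 129 CPM with DMSO, a shrunken log2 change of 0.69 ± 0.092 (SE) with an adjusted p of 3.08e-11 per the authors' deposited table. ZFAS1, a host of small nucleolar RNAs, averaged 207 CPM with dieldrin and 136 CPM with DMSO, with an adjusted p of 1.25e-11 per the authors' deposited table. The antisense RNA ENSG00000267519, which the authors' deposited table lists under the symbol MIR24-2, averaged 4.22 CPM with dieldrin and 0.892 CPM with DMSO, with an adjusted p of 1.20e-18, and says nothing of the mature microRNA. LINC00936 rose 3.38-fold, the antisense RNA RP5-821D11.7 3.73-fold, LINC-PINT 2.03-fold, LINC00641 1.42-fold and RP11-1114A5.4 1.74-fold per the authors' deposited table. Lower were LINC00528, at 10.0 CPM with dieldrin and 17.6 CPM with DMSO and an adjusted p of 2.25e-13 per the authors' deposited table, and RP11-18I14.10, at 23.7 CPM with dieldrin and 36.5 CPM with DMSO. With PMA the folds were 0.719 for LINC00528, which was called with an adjusted p of 0.000535, and 0.878 for RP11-18I14.10, which was not, per the authors' deposited table. CTD-2227E11.1 averaged 2.48 CPM with dieldrin and 6.47 CPM with DMSO, and its fold was 0.384 with dieldrin and 0.384 with PMA per the authors' deposited table. NEAT1 and ZFAS1 stood at 1.29-fold and 1.17-fold with PMA per the authors' deposited table, neither of them called. The median unshrunken log2 change of the 31 higher RNAs was 1.34 with dieldrin and 0.41 with PMA, and that of the 41 lower RNAs -0.83 with dieldrin and -0.36 with PMA. Both comparisons rest on the same 3 DMSO libraries.

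The build of the called long noncoding RNAs is given as counts, with no test. Exons were counted in the longest spliced transcript of GENCODE v29. No minimum level was set, and the sets differed in median level: 3.34 CPM for lower, 1.49 CPM for higher and 0.398 CPM for uncalled RNAs. The part of level in the shares below was not tested. Of the 41 lower RNAs 28 (68.3%) had a single exon, compared with 12 of the 31 higher RNAs (38.7%) and 868 of the 3093 RNAs not called (28.1%). A start within 1 kb of that of a protein-coding gene on the other strand, the arrangement in which one promoter region serves both directions, was found for 21 of the 41 lower RNAs (51.2%). The same held for 6 of the 31 higher RNAs (19.4%) and 911 of the 3093 not called (29.5%). None of the coding genes at these starts was called: 0 of the 21 partners of lower RNAs and 0 of the 6 partners of higher RNAs. The partners of lower RNAs had a median unshrunken log2 change of -0.01. Calls were also rare among the partners of the 911 RNAs not called, with 7 higher and 11 lower. The counts of 0 therefore do not set the partners of called RNAs apart. RP13-1032I1.7 had a fold of 0.537 with dieldrin and 0.626 with PMA, both called, per the authors' deposited table, and its partner MRPL12, a mitochondrial ribosomal protein gene whose start lies 57 bp away, one of 0.978. The fold of RP11-37C7.3 was 0.490 beside 0.906 for FSIP1, and that of RP11-390B4.5 was 0.489 beside 0.946 for STAM, per the authors' deposited table. The widest partner change, CAPN10 beside CAPN10-AS1, was a fold of 0.775 with an adjusted p of 0.419 per the authors' deposited table. On the higher side LINC00936 stood at 3.38-fold beside 0.992 for ATP2B1, and ZFAS1 at 1.52-fold beside 0.934 for ZNFX1, per the authors' deposited table. CAPN10-AS1, FSIP1, STAM and the other coding partners are named for their position beside a called RNA.

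**Figure D4:**
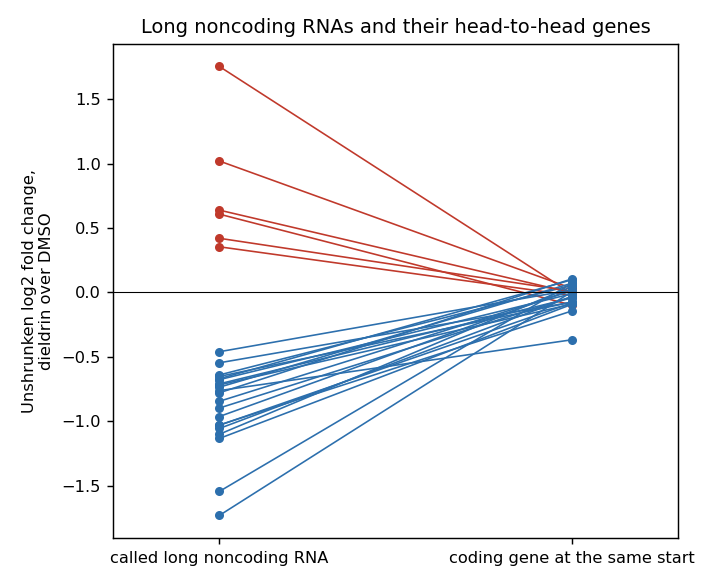
Lines join each called long noncoding RNA (left) with the protein-coding gene that starts within 1 kb on the other strand (right), and the vertical axis is the unshrunken log2 fold change of dieldrin over DMSO. Blue marks the 21 lower and red the 6 higher RNAs; the coding partners lie between -0.37 and 0.11.

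Higher noncoding genes also lay beside called coding genes. Mitochondrial genes are left out of these counts. Every type other than protein-coding counts as noncoding here, so the 2 higher antigen receptor segments, TRAV17 and TRAV19, are included. Of the 57 higher nuclear noncoding genes with a GENCODE type 6 (10.5%) were within 10 kb of a called protein-coding gene, and of the 44 lower ones 0, while 134 of 5268 tested nuclear noncoding genes without a call (2.54%) had such a neighbour. RP11-1100L3.8 overlapped the orphan receptor gene NR4A1 on the other strand, at 0.458 CPM with dieldrin and 0.0177 CPM with DMSO. CTC-250I14.6 overlapped IER2 and AC008753.6 overlapped MYADM, both on the other strand and higher with dieldrin like their neighbours. MIR3188, a microRNA hairpin row, lay 455 bp from JUND, with an adjusted p of 2.20e-13 per the authors' deposited table. In these 4 pairs both genes were higher. The pseudogene RP11-288H12.3 lay within IGF2R and SNORA53 within SLC25A3, both on the same strand and higher where the coding gene was lower, at folds of 1.99 and 0.682 for the first pair and 3.45 and 0.858 for the second per the authors' deposited table. How far reads of 1 gene of a pair were counted to the other was not tested.

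Among pseudogenes, copies of genes that mostly lack a full reading frame, RP11-196G18.22 rose 1.86-fold with an adjusted p of 1.81e-05, RP11-345J4.8 1.48-fold and CCT6P1 1.31-fold per the authors' deposited table. CHMP4BP1 rose 1.86-fold, FABP5P1 1.56-fold and MRPL45P2 1.38-fold, while RP1-152L7.5 fell to 0.665 times its DMSO level, per the authors' deposited table. Reads of near-identical copies may have been split between a pseudogene and its parent, so these values are uncertain.

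A set of 63 gene families that are not early-gene families held 4561 tested protein-coding genes, of which 40 were higher and 40 lower, compared with 1.37% and 1.02% over all protein-coding genes. Of these families 38 had at least 1 called gene, 12 of them only higher and 15 only lower genes, and the other 25 had none. The counts below describe the families and set none of them apart from other genes.

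In the families of transcription factors and their pathways 11 of 736 tested genes were higher and 2 lower, with a median log2 change of 0.02. C2H2 zinc finger factors, the most numerous DNA-binding proteins of the human genome, had 7 of 456 higher and 1 lower. ZNF548 averaged 28.6 CPM with dieldrin and 16.7 CPM with DMSO, with an adjusted p of 4.94e-19 per the authors' deposited table, and ZNF34 averaged 4.45 CPM with dieldrin and 2.38 CPM with DMSO. Beside ZFP36, which is also on the early-gene list, ZNF460 rose 1.66-fold, ZNF383 1.33-fold, ZNF16 1.25-fold and ZNF346 1.22-fold, and the one lower member, ZBTB9, had a fold of 0.805, per the authors' deposited table. ERF, an ETS repressor downstream of ERK, rose 1.23-fold and TGIF2, a homeobox corepressor of TGF-beta signalling, 1.22-fold per the authors' deposited table. HOXD8 fell to 0.751 times its DMSO level per the authors' deposited table. The Integrator subunit INTS6 rose 1.20-fold and TAF1D, a factor of RNA polymerase I, 1.29-fold per the authors' deposited table.

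Chromatin families had 2 of 175 tested genes higher and 0 lower, namely JMJD6, a hydroxylase of the Jumonji family, at 1.24-fold and ING3, a subunit of the NuA4 acetyltransferase, at 1.22-fold per the authors' deposited table. Cell cycle families had 2 of 322 higher and 0 lower: CCNL1, which is also on the early-gene list, and E2F8, at 1.22-fold per the authors' deposited table. At an unadjusted p under 0.05 in the authors' Wald test the lower genes numbered 7 in the chromatin and 9 in the cell cycle families. Neither the 46 chromatin remodellers nor the 33 Mediator subunits tested had a called gene.

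Cell surface families had 2 of 426 tested genes higher and 12 lower (2.82%). The receptor tyrosine phosphatases PTPRS and PTPRF, counted with signalling, were the 2 called among 30 tyrosine phosphatases, both lower: PTPRS averaged 56.5 CPM with dieldrin and 82.2 CPM with DMSO, and PTPRF 8.74 CPM with dieldrin and 11.9 CPM with DMSO. The sorting receptor SORL1 fell to 0.701 and the WNT coreceptor LRP5 to 0.653 times the DMSO level per the authors' deposited table. Of 102 ion channel genes 0 were higher and 2 lower, the mechanically gated channel PIEZO1, at 117 CPM with dieldrin and 167 CPM with DMSO, and the chloride transporter gene CLCN5, at 10.4 CPM with dieldrin and 13.1 CPM with DMSO. FBLN2, a matrix glycoprotein, averaged 65.9 CPM with dieldrin and 100 CPM with DMSO and AGRN, the proteoglycan agrin, 4.35 CPM with dieldrin and 7.84 CPM with DMSO. The receptor kinase TYRO3 fell to 0.686, the adhesion receptor CELSR2 to 0.741 and GPR125 to 0.818 times the DMSO level per the authors' deposited table. None of 58 cytokine and TNF family receptors, and none of 23 subunits of GABA, glycine, glutamate and acetylcholine receptors, was called.

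Of the calcium signalling genes 2 were lower and 0 higher. ATP2A3, the calcium pump SERCA3 of the endoplasmic reticulum in blood cells, averaged 299 CPM with dieldrin and 477 CPM with DMSO, a shrunken log2 change of -0.52 ± 0.098 (SE) with an adjusted p of 1.99e-05 per the authors' deposited table. STIM1, which senses calcium in that store and opens the surface channel, fell to 0.798 times its DMSO level with an adjusted p of 0.0393 per the authors' deposited table. ATP2A3 and STIM1 were the only called members among 39 calcium signalling genes.

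Signalling families had 6 of 397 tested genes higher and 8 lower. MAP3K14, the NF-kB-inducing kinase of the alternative pathway, rose 1.83-fold with an adjusted p of 5.31e-09, and its PMA fold was 1.66, per the authors' deposited table. INPP5D, the lipid phosphatase SHIP1, rose 1.31-fold, while RPS6KA4, the kinase MSK2, fell to 0.588 and ARHGAP30 to 0.787 times the DMSO level, per the authors' deposited table. BAMBI, a decoy receptor of TGF-beta signals, rose 1.38-fold and LTBP1, which stores latent TGF-beta, fell to 0.671 times its DMSO level per the authors' deposited table. LATS1, the kinase at the end of the Hippo cascade, rose 1.18-fold and VGLL4, a competitor of its target YAP, 1.13-fold per the authors' deposited table.

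Trafficking and glycosylation families had 0 of 341 tested genes higher and 5 lower. The 4 lower glycosyltransferase and sugar enzyme genes, of 103 tested, were EXT2, which polymerises heparan sulphate, at 0.866, ALG1, an early enzyme of N-glycan assembly, at 0.791, MGAT4B, which branches N-glycans, at 0.747 and FUT4, a fucosyltransferase, at 0.866 times the DMSO level per the authors' deposited table. None of the 80 coat, SEC and TMED genes was called, and 6 trafficking genes in all were higher with a p under 0.05 before adjustment in the authors' Wald test. NUP210, a membrane-spanning nucleoporin, averaged 121 CPM with dieldrin and 191 CPM with DMSO, with an adjusted p of 3.62e-08 per the authors' deposited table.

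Among protein turnover families, CUL3, the scaffold of a family of ubiquitin ligases, averaged 87.2 CPM with dieldrin and 136 CPM with DMSO, with an adjusted p of 1.65e-07 per the authors' deposited table. TRIM28, a corepressor of zinc finger factors with a ligase domain, averaged 595 CPM with dieldrin and 826 CPM with DMSO, and MARCH6, a ligase of the endoplasmic reticulum, 99.4 CPM with dieldrin and 122 CPM with DMSO. In all 1 of 256 ubiquitin ligase and adaptor genes was higher, FBXO10, and 4 were lower. The deubiquitinase family member USP53 rose 1.20-fold per the authors' deposited table. None of the 46 proteasome subunits was called.

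Of 61 RNA helicases and of 68 translation factors, 2 each were higher, and they were the same pair of genes, EIF4A1 and EIF4A2, the helicases of cap-dependent initiation. EIF4A1 averaged 6.44 CPM with dieldrin and 3.54 CPM with DMSO and EIF4A2 439 CPM with dieldrin and 348 CPM with DMSO. With PMA the fold of EIF4A1 was 1.89, which was called, and that of EIF4A2 1.24, which was not, per the authors' deposited table. Both genes hold small nucleolar RNAs in their introns, and how reads were divided between overlapping genes was not tested. VARS2, the mitochondrial valine tRNA synthetase, fell to 0.731 and TCOF1, a nucleolar factor of ribosome production, to 0.858 times the DMSO level per the authors' deposited table. Among metabolic genes SAT1, which acetylates polyamines for breakdown, rose 1.46-fold and GLUL, glutamine synthetase, 1.13-fold, while IMPDH1, for guanine nucleotide synthesis, fell to 0.764 and LPCAT1, for phosphatidylcholine remodelling, to 0.800 times the DMSO level per the authors' deposited table. FLNA, which cross-links actin, averaged 560 CPM with dieldrin and 813 CPM with DMSO.

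In the families named for open reading frames and sequence alone, genes of mostly unassigned function, 10 of 974 tested genes were higher and 5 lower. FAM46C averaged 86.1 CPM with dieldrin and 60.3 CPM with DMSO, FAM73A 7.08 CPM with dieldrin and 4.81 CPM with DMSO, C6orf48 167 CPM with dieldrin and 126 CPM with DMSO and C11orf96 6.71 CPM with dieldrin and 4.11 CPM with DMSO. TMEM30A fell to 0.843, LRRC58 to 0.830, C2orf44 to 0.802 and CCDC85C to 0.561 times the DMSO level per the authors' deposited table.

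The families with no called gene cover much of the cell's standing machinery. They include 103 mitosis, kinetochore and centrosome genes, 94 DNA repair genes, 93 kinesins, dyneins and myosins, 92 Rab GTPases and TBC proteins, 88 RNA-binding motif proteins, 74 mitochondrial ribosomal proteins, 57 replication factors and 53 cytochrome P450, UGT and GST genes. Forkhead factors (27 tested), basic helix-loop-helix factors (36) and nuclear receptors other than NR4A (27) were likewise without a call. Over all 25 families without a call, 20 of 1241 tested genes were higher and 31 lower with a p under 0.05 before adjustment in the authors' Wald test. Over all genes of 10 CPM or more the smallest called changes were 1.13-fold upwards and 1.14-fold downwards, and no limit of detection was worked out for these families.

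Higher genes had fewer exons and lower genes more exons than genes without a call, a description with no test. Of the 11010 coding genes of at least 1 CPM, 166 were higher (1.51%) and 134 lower (1.22%). The median number of exons, counted in the longest spliced transcript of GENCODE v29, was 5 for the higher, 16 for the lower and 8 for the 10710 genes not called. That transcript was the longest of any type and need not be the coding one. VMP1, for example, spans 135064 bases and was counted with 1 exon. All exon counts here carry this uncertainty, and its part in the differences was not tested. The median coding sequence was 1212 bases in higher, 2514 in lower and 1410 in uncalled genes. The 115 higher genes outside the early-gene list had a median of 6 exons, and 14.8% of them had 1 or 2 exons, compared with 20.5% of all 166 higher and 9.90% of uncalled genes. Among the 1108 genes with 1 or 2 exons 3.07% were higher and 1.26% lower, whereas among the 1415 genes with 21 exons or more 0.212% were higher and 3.32% lower. The 3 higher genes and 47 lower genes of that last group include AP3B1, higher at 1.32-fold, and ESYT1, GCN1L1 and PLXNA1, lower at 0.605, 0.721 and 0.678 times the DMSO level, per the authors' deposited table. These examples were chosen after their values were seen.

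Segments long and hydrophobic enough to span a membrane were more frequent among the lower genes. A hydrophobic segment, counted where 19 residues of the longest coding sequence reach a mean Kyte-Doolittle hydropathy of 1.6, was present in 34 of 166 higher genes (20.5%), 85 of 134 lower genes (63.4%) and 3341 of 10710 uncalled genes (31.2%). The lower genes made up 0.649% of the 7550 genes with no segment, 1.62% of those with 1, 2.80% of those with 2 to 5 and 5.09% of the 432 genes with 6 or more. Signal peptides of secreted proteins also count as segments. Among the lower genes with many segments, chosen after their values were seen, were the cholesterol transporter gene NPC1 at 0.800, the cholesterol sensor SCAP at 0.702, the bicarbonate exchanger SLC4A2 at 0.643, the drug exporter ABCC1 at 0.797, the riboflavin transporter SLC52A2 at 0.690 and the dolichol kinase DOLK at 0.704 times the DMSO level per the authors' deposited table.

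Exon number, counted as above in the longest transcript of any type, was also crossed with segments. Among genes of 11 exons or more, 65 of 1504 with a segment were lower (4.32%) and 24 of 2803 without one (0.856%). Among genes of 10 exons or fewer, 20 of 1956 with a segment were lower (1.02%) and 25 of 4747 without one (0.527%). Coding GC content was also higher among the lower genes: its median was 53.4% in higher, 60.0% in lower and 51.9% in uncalled genes, and of the 2753 genes of highest GC 2.69% were lower, compared with 0.254% of the 2753 of lowest GC. The higher genes outside the early-gene list had a median coding GC of 51.4%, below that of the uncalled genes. The median log2 change of all genes with 6 segments or more was -0.04, so the bulk of these genes stayed near 0. The share of calls can also depend on the level, and the median level was 21.6 CPM for higher, 44.4 CPM for lower and 32.2 CPM for uncalled genes. The parts of transcript length, GC content and level in these counts were not tested.

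**Figure D5:**
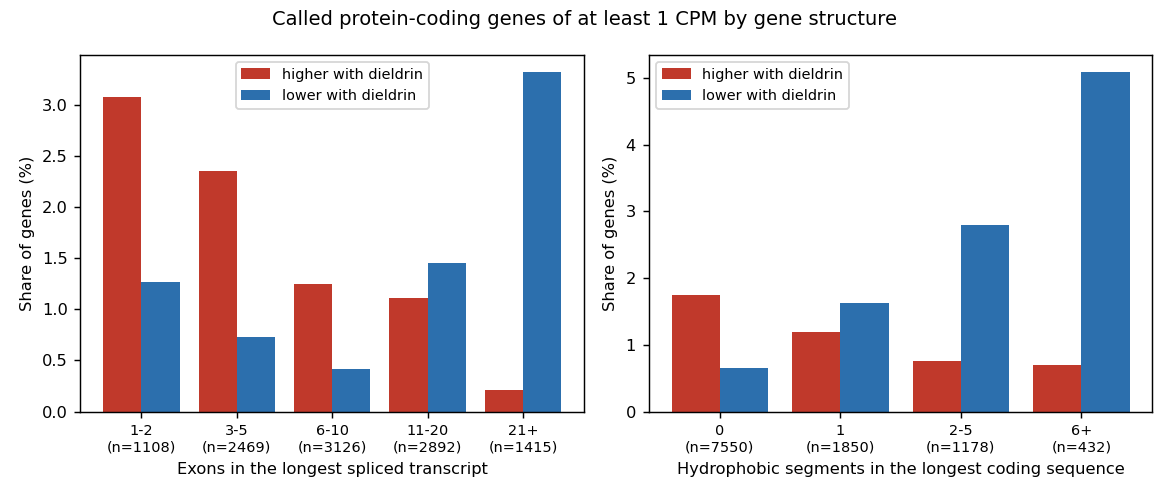
Bars give the percent of protein-coding genes of at least 1 CPM called higher (red) or lower (blue) with dieldrin. The bins are the number of exons in the longest spliced transcript, which need not be the coding one (left), and the number of hydrophobic segments (right). The number of genes is under each bin. Higher calls make up 3.07% of the genes with fewest exons and 0.212% of those with most, and lower calls reach 5.09% in genes with 6 or more hydrophobic segments.

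Promoter sequences of RefSeq (build GRCh38.p14, 250 bases before a start) were matched to 133 of the 166 higher, 108 of the 134 lower and 8865 of the 10710 uncalled coding genes. The CArG box, the element bound by serum response factor, was searched on both strands, and a gene counts as a carrier if any of its listed starts holds it. It was found in 9 of the 133 higher (6.77%), 1 of the 108 lower (0.926%) and 121 of the 8865 uncalled promoters (1.36%), and in 407 of all 35093 promoters of the table, each start counted singly (1.16%). The cyclic AMP response element TGACGTCA was found in 9 (6.77%) of the higher, 3 (2.78%) of the lower and 319 (3.60%) of the uncalled promoters, and in 1.65% of all promoters. The TATA box, searched as TATAAA, was in 18.0%, 7.41% and 7.21% of higher, lower and uncalled promoters, and in 10.7% of all. The heat shock element was in 1 higher, 0 lower and 38 uncalled promoters, and in 0.442% of all. NF-kB sites were in 14 of the higher (10.5%), 13 of the lower (12.04%) and 688 of the uncalled promoters (7.76%), and in 5.20% of all. The AP-1 site TGANTCA was in 3.01% of higher, 5.56% of lower and 5.60% of uncalled promoters and 6.57% of all, and the EGR site GCGTGGGCG in 2.26% of higher, 2.78% of lower, 1.58% of uncalled promoters and 0.721% of all. The E-box CACGTG was in 12.8% of higher, 12.04% of lower and 11.8% of uncalled promoters, with 6.34% of all, and CCAAT in 45.9% of higher, 35.2% of lower and 42.3% of uncalled promoters and 32.0% of all. Median promoter GC was 64.4% for higher, 70.4% for lower and 64.8% for uncalled genes. A match is only a run of letters and shows no binding.

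The 1 lower carrier of a CArG box was FLNA, at 0.688 times its DMSO level per the authors' deposited table. The 9 higher carriers, named after their values were seen, were EGR1, EGR2, ZNF548, CCNB1IP1, C6orf48, HIST2H2BE, ELMSAN1, TPM4 and FAM53C. The 4 with the smallest p outside the early-gene list are shown, since they carry this element outside the genes it is best known for; their folds were 1.71 for ZNF548, 1.42 for CCNB1IP1, 1.32 for C6orf48 and 2.05 for HIST2H2BE per the authors' deposited table. Each is the 250 bases before the start on the gene's own strand, with the CArG box in capitals. ZNF548 is at chr19:57389604-57389853 on the plus strand and carries the element at 2 places, CCNB1IP1 at chr14:20333280-20333529 on the minus strand, C6orf48 at chr6:31834666-31834915 on the plus strand and HIST2H2BE at chr1:149886683-149886932 on the minus strand. These positions are on GRCh38.p14, while the positions given from the authors' deposited table are on hg19.
ZNF548: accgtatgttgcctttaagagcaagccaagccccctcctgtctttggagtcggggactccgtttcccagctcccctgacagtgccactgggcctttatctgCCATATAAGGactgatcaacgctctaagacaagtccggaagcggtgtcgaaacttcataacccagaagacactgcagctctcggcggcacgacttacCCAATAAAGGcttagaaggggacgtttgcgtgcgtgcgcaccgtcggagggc
CCNB1IP1: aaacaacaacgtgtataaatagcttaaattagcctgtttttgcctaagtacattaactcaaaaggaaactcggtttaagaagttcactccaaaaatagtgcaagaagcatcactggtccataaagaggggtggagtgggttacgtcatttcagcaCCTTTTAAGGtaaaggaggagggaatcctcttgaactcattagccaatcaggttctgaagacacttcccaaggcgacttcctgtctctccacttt
C6orf48: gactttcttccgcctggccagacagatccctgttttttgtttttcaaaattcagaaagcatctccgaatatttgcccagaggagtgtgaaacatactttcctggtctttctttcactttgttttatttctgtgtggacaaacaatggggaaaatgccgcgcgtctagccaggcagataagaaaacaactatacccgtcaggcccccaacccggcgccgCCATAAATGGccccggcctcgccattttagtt
HIST2H2BE: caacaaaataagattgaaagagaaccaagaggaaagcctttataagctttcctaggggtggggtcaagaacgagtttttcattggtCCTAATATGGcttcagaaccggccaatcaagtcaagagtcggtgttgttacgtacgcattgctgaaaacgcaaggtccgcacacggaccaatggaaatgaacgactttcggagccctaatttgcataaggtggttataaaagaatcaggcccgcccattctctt
CCNB1IP1 encodes a cyclin B1-interacting protein and HIST2H2BE a core histone of the H2B type. CCNB1IP1 and C6orf48 had adjusted p-values of 1.54e-08 and 4.72e-05, and HIST2H2BE one of 0.000260, per the authors' deposited table.

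Sites of divergent transcription, places where the authors found transcription leaving in both directions, were listed for 1 dieldrin and 1 DMSO library, 118474 and 113689 sites, so they carry no test. Within 1 kb of their start 150 of the 180 higher coding genes had a site in the dieldrin list and 140 in the DMSO list, with 18 in the dieldrin list alone and 8 in the DMSO list alone. Of the 126 higher coding genes outside the early-gene list 103 had a site in the dieldrin list and 99 in the DMSO list, with 10 in the dieldrin list alone and 6 in the DMSO list alone. Of the 135 lower coding genes 107 had a site in the dieldrin list and 113 in the DMSO list, with 6 in the dieldrin list alone and 12 in the DMSO list alone. For the 10697 coding genes of at least 1 CPM without a call in this count, the shares were 78.2% in the dieldrin list and 78.5% in the DMSO list. Of these genes 649 had a site in the dieldrin list alone and 679 in the DMSO list alone. Among long noncoding RNAs 23 of the 31 higher had a site in the dieldrin list and 24 in the DMSO list. Of the 41 lower ones 33 had one in the dieldrin list and 32 in the DMSO list. For the 3093 not called the shares were 62.6% in the dieldrin list and 62.9% in the DMSO list. The median level of these uncalled RNAs was 0.398 CPM, below the 1.49 CPM of the higher and the 3.34 CPM of the lower ones. The part of level in these shares was not tested.

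The reference genes ACTB and GAPDH and the T cell receptor gene CD3E were not called, with folds of 1.08, 0.972 and 0.978 per the authors' deposited table.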

How the data were processed

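Jurkat RNA was sequenced as 9 poly(A) libraries, 3 per group, and 2 libraries depleted of ribosomal RNA. STAR, edgeR and hg19 appear in the submitters' processing notes; how reads were counted, with or without strand, is not given in the sources used here. Per the file headers, the authors' table holds for each gene the mean normalised count (a signal), log2 changes with and without shrinkage, a Wald statistic (a score), a p-value and an adjusted p, named as DESeq2 names them. The authors' estimates and adjusted p-values stand as deposited. Without values per library no count model could be fitted, and the depth of single libraries is unknown. Group levels follow from the mean over 9 libraries and both unshrunken changes. A fold is unshrunken throughout.

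Gene types, exons and coding sequences came by gene ID from GENCODE v29 (41842 of 44416 matched); distances used hg19 positions from the authors' table. Members, the early-gene list and the families were chosen with earlier results of these data known. Named genes were, among called genes of at least 1 CPM off the early-gene list, those with the 15 highest and the 15 lowest shrunken changes, up to 3 of smallest p per noncoding type and direction and per family, and ACTB, GAPDH and CD3E; others were chosen after their values were seen. A few genes that meet these rules are not reported here. Software was Python 3.11.15 with numpy 2.4.6, scipy 1.17.1, pandas 2.3.3, Biopython 1.88 and matplotlib 3.10.9. The steps were tested on simulated data. Alternatives were other thresholds, adjustments, filters, distances and windows.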

Additional observations from a re-analysis of the deposited data

How the results depend on the processing

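With a minimum change of 2-fold the called genes came to 96 higher and 29 lower, and at an adjusted p under 0.01 the lower genes came to 115. The other counts stayed within 1.5 times the reported 246 and 197: 171 higher at 0.01, 308 and 239 at 0.1, 207 and 149 adjusted over every row with a p-value, 216 and 196 adjusted over genes of at least 1 CPM, and 316 and 244 with the statistic divided by its spread of 0.928. Centring on the median change left 246 and 197. The 80 called family members came to 65 adjusted over every row and 78 at 1 CPM or more. All 116 named genes kept their direction without shrinkage, and for 27 the unshrunken change was over 1.5 times the shrunken one. Shrinkage pulls changes towards no change and seldom reverses a called gene, so the kept direction is no independent check. Low levels limit what can be called: below 1 CPM the smallest called fall was 1.66-fold. No paired analysis was possible because the values used here are comparisons and hold no values per library; for the same reason no replicate could be left out.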

Other observations

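Of the genes of at least 1 CPM, 14 are without a p-value in the authors' deposited table, and 5 of these differ 2-fold or more without shrinkage, all on the early-gene list. FOSB averaged 191 CPM with dieldrin and 1.35 CPM with DMSO, EGR3 116 CPM with dieldrin and 1.98 CPM with DMSO, EGR4 20.8 CPM with dieldrin and 0.191 CPM with DMSO, TNF 7.57 CPM with dieldrin and 0.0873 CPM with DMSO, and CYR61, which encodes a matrix protein, 10.2 CPM with dieldrin and 0.679 CPM with DMSO. The counts of called genes leave them out.

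Among nuclear chromosomes, the share of higher genes ran from 0.444% of 675 tested genes on chromosome 4 to 2.57% of 973 on chromosome 6. The mitochondrial genome, where 11 of 20 tested tRNA genes were lower, is left out here. The share of lower genes on nuclear chromosomes ran from 0.145% of 688 on chromosome 14 to 1.75% on chromosomes 11 and 22. These shares carry no test.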
